A study of Rattus norvegicus with 2 samples.

Results

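Cycling goblet-lineage cells are jejunal epithelial cells of the rat that carried goblet-cell transcripts and proliferation transcripts in the same droplet. They were selected on measured values. A barcode counted when it had over 200 and under 5800 genes, over 5000 UMIs (unique molecular identifiers, each marking 1 captured transcript), at most 40% of its UMIs in symbols starting Mt-, at least 2% of its UMIs in Tff3, Zg16, Fcgbp, Clca1 and Agr2 summed, and at least 2 UMIs in Mki67 and Top2a summed. The rule found 158 cells among the 8218 barcodes that passed the cell filters and the 20285 in the files. Rat 1 gave 145 of 5988 and rat 2 gave 13 of 2230, so most of what follows rests on the cells of rat 1, with rat 2 as a small replicate.

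The series profiled proximal jejunum from 2 untreated male Sprague Dawley rats, 6-8 weeks old and 180-200 g in weight, that had been fasted overnight. Epithelium was released with EDTA, dissociated with dispase and run as 1 droplet library of 3' transcript ends per rat (10x 3' v3). Both comparisons below are therefore between cell classes of the same 2 animals, not between treatments. The barcode lists of the libraries shared 28 sequences, 4 of them kept by the filters in both, and 0 members lay among the shared ones.

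Goblet cells make and secrete the mucus that coats the gut lining, and they are replaced continually from stem cells at the base of the crypts. A crypt cell that escapes Notch signalling switches on Atoh1 and then Spdef, factors that commit it to the secretory lineage and drive goblet maturation. Most mature goblet cells have left the cell cycle, so cells with both programmes are usually read as early members of the lineage that still divide.

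The members were set beside the 2 classes most like them. Non-cycling goblet-lineage cells met the same goblet limit but had 0 or 1 UMI of Mki67 and Top2a, and numbered 257 in rat 1 and 168 in rat 2. Other cycling epithelial cells met the Mki67 and Top2a limit but not the goblet limit, had over 10 UMIs in Epcam, Krt8, Krt18, Krt19 and Krt20, and numbered 1207 and 87. The remaining epithelial cells, 4346 and 1389, serve below only to show background levels.

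**Figure D1:**
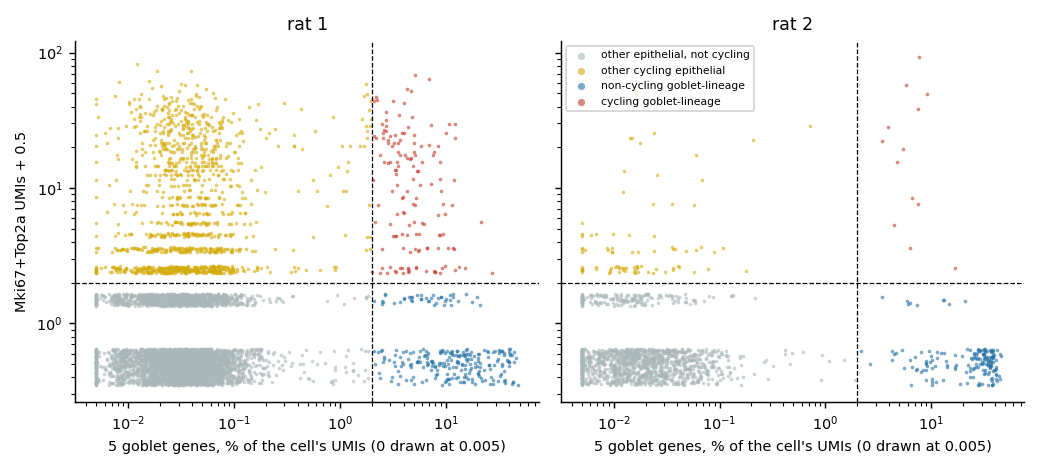
Every epithelial cell kept by the filters, by its share of UMIs in the 5 goblet genes and its UMIs of Mki67 and Top2a, in each rat. Dashed lines mark the limits of the rule, and points were shifted slightly up or down at random so that equal counts can be seen.

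The genes of the rule describe the selection and were not tested. The 5 goblet genes held 4.75% of the members' UMIs in rat 1 and 6.88% in rat 2, against 12.1% and 22.8% in the non-cycling goblet-lineage cells and 0.109% and 0.0294% in the other cycling cells. Members thus carried a large goblet signal that was still well under that of their non-cycling counterparts. Their make-up differed as well. Zg16, a lectin of mucus granules, held 0.541% and 0.360% of the members' UMIs against 4.08% and 11.8% in the non-cycling class. Agr2, an endoplasmic reticulum protein needed to fold mucin, held 1.41% and 2.94% against 1.93% and 0.943%, and Clca1, a secreted protease of mucus, 0.662% and 0.849% against 0.994% and 0.482%. Within the selecting genes the gap was therefore widest for Zg16, whereas Agr2 and Clca1 were higher in the members of rat 2 and lower in those of rat 1.

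Mki67, a coat protein of mitotic chromosomes, had a UMI in 98.6% of members of rat 1 and 100% of those of rat 2, and Top2a, which untangles replicated DNA, in 73.8% and 84.6%. The members' median was 10 UMIs of the pair in rat 1, from 2 to 68, and 19 in rat 2, from 2 to 92. Other cycling cells had medians of 5 and 3. In rat 2, 72.4% of those other cycling cells had only 2 or 3 UMIs of the pair, against 15.4% of the members, and in rat 1 the shares were 42.0% and 26.9%. The other cycling class of rat 2 thus held mostly cells close to the limit, which bears on each value that involves it.

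At the goblet limit, the members nearest to it stood at 2.02%, 2.08% and 2.10% in rat 1 and at 3.40%, 3.94% and 4.46% in rat 2, and the cycling cells just under it at 1.99%, 1.99% and 1.99% in rat 1 and at 0.716%, 0.208% and 0.179% in rat 2. Around it, rat 1 had 12 members from 2% to under 2.5% and 19 cycling cells from 1.5% to under 2%, while 1172 of its cycling cells lay under 0.5%. The limit therefore runs through a thin continuum in rat 1 and through an empty stretch in rat 2. At the other limit, 27 members of rat 1 and 1 of rat 2 had 2 UMIs of the pair, while 42 and 9 goblet-lineage cells had 1 UMI and fell just outside.

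Members were large libraries. Their median was 21689 UMIs and 4093 genes in rat 1 and 25986 UMIs and 4649 genes in rat 2, against 9242 UMIs and 2220 genes, and 15153.5 UMIs and 2254.5 genes, in non-cycling goblet-lineage cells. The other cycling cells lay between in rat 1, at 15394 UMIs, and near the members in rat 2, at 24431. Depth makes a limit of 2 UMIs easier to meet, and its part in the size of the class is measured below by thinning every cell to 5000 UMIs. Mitochondrial symbols held a median 10.0% and 11.0% of the members' UMIs, against 7.63% and 5.47% in the non-cycling and 12.0% and 19.9% in the other cycling cells. A doublet caller marked 1 of 145 members in rat 1 and 0 of 13 in rat 2, against 119 of 5988 and 7 of 2230 cells kept. The members' median doublet score was nonetheless 0.0788 and 0.0871, against 0.0297 and 0.0372 in the other cycling cells, and whether a few members are droplets with 2 cells was not tested beyond this.

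Of the goblet-lineage cells, 36.1% in rat 1 (95% interval from counting, 31.4% to 41.0%) and 7.18% in rat 2 (3.88% to 12.0%) met the cycling limit. These values, with the ranges that follow, restate the 2 measures of the rule and describe the selected cells, with no test, and the intervals cover counting error over cells and not the spread between rats. On cells thinned to 5000 UMIs the shares were 23.1% (19.1% to 27.5%) and 3.31% (1.23% to 7.08%). By range of goblet signal, the share in rat 1 was 64.9% of the 94 cells with 2% to under 4% of UMIs in the goblet genes, 50.5% of the 111 with 4% to under 8%, 23.6% of the 110 with 8% to under 16%, and 2.30% of the 87 above. In rat 2 it was 40% of 5, 36% of 25, 3.23% of 31 and 0.833% of 120. Thinned cells gave 42.6%, 30.2%, 17.4% and 1.14% in rat 1 and 0% of 4, 16% of 25, 6.06% of 33 and 0% of 119 in rat 2. Few cells of the top range thus met the cycling limit, while the lower ranges of rat 2 hold too few cells to show a trend, and 120 of the 181 goblet-lineage cells of rat 2 lay in that top range.

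**Figure D2:**
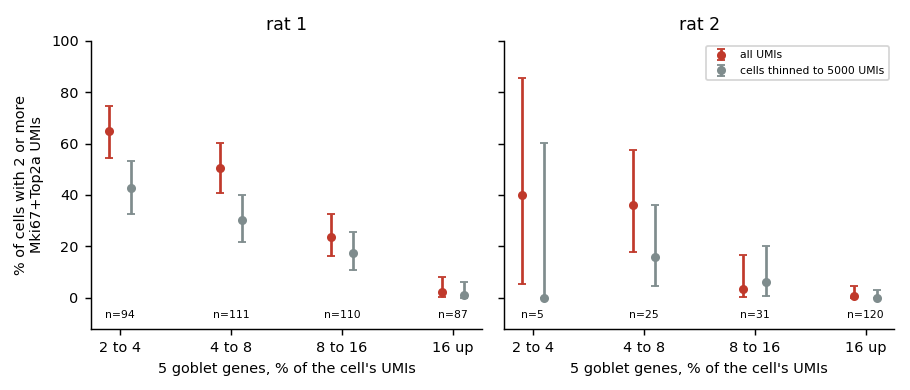
Share of goblet-lineage cells that met the cycling limit, by goblet signal, in each rat, with 95% intervals from counting. Red uses all UMIs and grey the cells thinned to 5000 UMIs.

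Among the members themselves, phase genes that the rule did not use were spread widely. On thinned cells, the members of rat 1 had a median of 24 UMIs (quartiles 12 and 45) over 49 genes of G2 and mitosis and of 6 (3 and 11) over 43 genes of S phase, and those of rat 2 had 41 (24 and 69) and 10 (6 and 23). Other cycling cells of rat 1 were close to the members of rat 1, with 24 and 5, whereas those of rat 2 had only 8 and 1. The mitosis list outnumbered the S-phase list in 125 of 145 and 11 of 13 members, but it also did so in 83.7% and 80.4% of non-cycling goblet-lineage cells, so that majority does not mark the members.

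Rank correlations across the 145 thinned members of rat 1, which share a library and a depth, describe what went with the 5 goblet genes. The other secreted mucus genes gave 0.57 and genes of the endoplasmic reticulum and secretory route 0.65, whereas the mitosis list gave -0.06, the S-phase list -0.14 and ribosome biogenesis -0.26. The enterocyte list gave 0.17. Since the 5 genes belong to the rule, these values describe the members of 1 rat and test nothing. In the 13 members of rat 2 the same lists, in this order, gave 0.71, 0.20, 0.14, -0.63, -0.32 and 0.65, so that the secretory-route, S-phase and enterocyte values all differed from those of rat 1, and so few cells hold them only loosely.

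Differences across genes were fitted on UMIs summed per rat and class, with the 7 genes of the rule left out, and levels are given as CPM (counts per 1e6 UMIs of such a sum). In edgeR without a term for the animal, 0 of 9201 genes passed an adjusted p of 0.05 between members and non-cycling goblet-lineage cells (1662 had an unadjusted p under 0.05, and the lowest adjusted p was 0.0589). Because the same rat supplied every class, the fit with the rat as a block stands beside it: 229 genes passed, 2.49% of those tested, 117 of them higher in members (1.27%) and 112 lower (1.22%). Across genes, the differences between the rats correlated at only 0.157 between both goblet-lineage classes and at 0.0352 between members and other cycling cells. Between the non-cycling goblet-lineage and other cycling cells they correlated at 0.617. The member sums thus shared little of the difference between the rats. DESeq2 without the block called 646, which included 222 of the 229. Those 646 were 237 higher and 409 lower, and the blocked fit with goblet genes at 4% or more called 317 and 498. The near-even split of the 229 thus did not hold in each setting. Every leave-out of 1 sum moved the blocked count: it was 1157 without the members of rat 1, 123 without those of rat 2, 722 and 367 without the non-cycling class of rats 1 and 2, and 1280 and 1212 without the other cycling class. Below, "called" means an adjusted p under 0.05 in edgeR with the rat as block, and the adjusted p of the fit without it follows as unblocked. Log2 fold changes of single genes in these results come from the blocked fit unless a leave-out is named. Medians over lists or over all genes come from the fit without the block. Over the 43 named genes called in this comparison the unblocked adjusted p ran from 0.0589 to 0.302, and 40 of the 43 also passed in DESeq2.

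Against non-cycling goblet-lineage cells, members had lower levels of several genes of the secreted mucus list and higher levels of cell-cycle genes, while no secretory transcription factor was called. Since the classes were split on Mki67 and Top2a and both hold goblet-selected cells, the rise of cell-cycle genes accompanies the selection, and nothing is read from it.

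Genes of the secreted mucus list, which leaves out those of the rule, leaned low in the members. This list also holds genes whose products are not secreted, such as Rep15, Lrrc26 and Slc12a8, described below. Of 32 tested, 6 were called lower and 0 higher, 22 were lower in both rats and 2 higher in both, and the list's median log2 fold change was -1.76, against -0.01 over all genes tested. Guca2a, the hormone guanylin that goblet cells of the surface release, stood at 806 and 202 CPM in members of rats 1 and 2 and at 7966 and 18889 in the non-cycling class. It fell by 5.35 on the log2 scale (adjusted p = 0.0393, unblocked adjusted p = 0.106). Reg4, a secreted lectin, stood at 62.3 and 183 against 514 and 1558, and fell by 3.42 (adjusted p = 0.0355, unblocked adjusted p = 0.128). Clca4, a relative of Clca1, stood at 55.8 and 28.4 against 479 and 331, and fell by 3.43 (adjusted p = 0.0363, unblocked adjusted p = 0.0924). Clca4 was not particular to goblet-lineage cells, since other cycling cells also carried it, at levels given below. A UMI of Guca2a was found in 71.7% and 38.5% of thinned members, close to the 71.4% and 30.1% of thinned cells of the remaining epithelium, and in 95.7% and 93.5% of thinned non-cycling goblet-lineage cells, and 1 cell held 67.2% of its 64 UMIs in members of rat 2. In each of these 3 genes both member sums lay under both sums of the other class. Tff1, a trefoil peptide of the stomach, was called lower from rat 2 alone, with 1 UMI in members against 325, and had 0 UMIs in both classes of rat 1.

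AABR07006030.1, an unnamed gene model that the rat files list and that marks goblet cells here, stood at 1514 and 3168 CPM in members and at 8212 and 36673 in non-cycling cells. Its log2 fold change of -3.50 was not called (adjusted p = 0.0702, unblocked adjusted p = 0.155). Its identifier matched no entry of the RefSeq gene table. A UMI of it was present in 97.2% and 100% of thinned members, against 10.5% and 10.0% of thinned cells of the remaining epithelium.

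The genes that decorate mucin with sugars leaned the same way, less far. Of 26 tested, 2 were called lower and 0 higher, with a median log2 fold change of -0.70. St3gal4, which adds sialic acid, stood at 35.1 and 59.9 against 137 and 419 and fell by 2.66 (adjusted p = 0.0318, unblocked adjusted p = 0.141). B3gnt7, which extends sugar chains, stood at 7.52 and 15.8 against 40.1 and 117 and fell by 2.77 (adjusted p = 0.0375, unblocked adjusted p = 0.193). Of 59 genes of the endoplasmic reticulum and secretory route 0 were called in either direction (edgeR with block; 3 had an unadjusted p under 0.05 without it, and DESeq2 called 0), and the median was -0.06. The summed level of that list was 15783 and 27267 CPM in members against 19175 and 15783 in the other class, so the rats differed in direction of the sum, while 23 genes were lower in members of both rats and 5 higher in both.

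Secretory transcription factors gave 0 calls among 18 tested (5 at an unadjusted p under 0.05 in edgeR without block, 0 by DESeq2). Atoh1, the factor that commits cells to the secretory lineage, stood at 153 and 400 CPM in members and at 278 and 367 in the non-cycling class, a log2 fold change of -0.69 (adjusted p = 0.290, unblocked adjusted p = 0.5998). Spdef, which drives goblet maturation, stood at 138 and 287 against 230 and 386, a log2 fold change of -0.91 (adjusted p = 0.288, unblocked adjusted p = 0.405). Both factors were therefore present at levels of the same order in dividing and non-dividing cells. A UMI of Atoh1 was found in 93.1% and 100% of members, and in 57.2% and 84.6% of thinned ones, against 0.598% and 0.216% of thinned cells of the remaining epithelium, where median depths were 11740.5 and 20328 UMIs.

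Notch genes gave 0 calls among 19 tested (1 at an unadjusted p under 0.05 in edgeR without block, 0 by DESeq2). Dll1, a Notch ligand of secretory precursors, had 50 and 2 UMIs in members against 49 and 32, or 15.7 and 6.30 CPM against 18.2 and 15.0, a log2 fold change of -0.53 (adjusted p = 0.604, unblocked adjusted p = 0.598). Dll4, another ligand, had 23 and 5 UMIs against 22 and 18, a log2 fold change of -0.08 (adjusted p = 0.9498). Hes1, the target that Notch activity switches on, stood at 73.3 and 12.6 CPM against 52.7 and 29.5, with opposite differences in the rats (adjusted p = 0.847). Dll1 had a UMI in 29.0% and 15.4% of members, and in 11.0% and 7.69% of thinned ones, against 7.78% and 4.17% of thinned non-cycling cells. The ligands were thus sparse in every class, and 2 rats do not resolve a difference of this size.

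Stem-cell and Wnt-target genes gave 0 calls among 18 tested (6 at an unadjusted p under 0.05 in edgeR without block, 0 by DESeq2), though 12 were higher in members of both rats and the median was 1.14. Olfm4, a crypt-base marker, stood at 163 and 41.0 CPM against 89.1 and 2.34, a log2 fold change of 1.52 (adjusted p = 0.235, unblocked adjusted p = 0.684). Its log2 fold change turned to -0.62 without the members of rat 1. Its 13 UMIs in rat 2 came from 2 cells. Lgr5, the receptor that marks crypt stem cells, had 3 and 0 UMIs in members, 1 and 0 in non-cycling goblet-lineage cells and 41 and 3 in the other cycling cells, too few to test. Ribosome biogenesis genes were higher in members of both rats for 28 of 29 tested, with a median of 1.24 and 0 calls (12 at an unadjusted p under 0.05 in edgeR without block, 4 by DESeq2). Npm1, a nucleolar chaperone, stood at 1498 and 1649 CPM against 760 and 270 (adjusted p = 0.118).

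Cell-cycle genes are given here only as a description of the selected cells. Of 46 genes of G2 and mitosis tested, 34 were called higher, of 41 S-phase genes 7, and of 27 genes of G1 and of cyclins and their kinases 4, and 0 genes of these lists were called lower. All 46 and all 41 were higher in members of both rats, with medians of 4.21 and 2.63. The 12 genes named as the largest called rises were Sgo2, Esco2, Pbk, Iqgap3, Ube2c, Ncapd2, Ttk, Fam83d, Kif18b, Cenpe, Cenpt and Spag5. Ube2c, which tags mitotic cyclins for destruction, stood at 409 and 769 CPM against 11.9 and 3.75, a log2 fold change of 6.13 (adjusted p = 0.0182, unblocked adjusted p = 0.0684). Sgo2, the guardian of cohesin at centromeres, stood at 54.2 and 110 against 0.742 and 0, with 173 and 35 UMIs against 2 and 0. Spag5, a spindle protein with 67 and 14 UMIs in members and 0 in the non-cycling class, was at least 18.9-fold higher in rat 1 and 31.4-fold in rat 2, against a floor of 3 counts per sum. Among cyclins, Ccnb1 stood at 101 and 110 against 9.65 and 1.87, Ccna2 at 54.8 and 88.3 against 4.45 and 0.468, and Ccne1 at 15.0 and 12.6 against 0.742 and 0. Mybl2, a factor of the complex that switches on mitotic genes, stood at 19.1 and 41.0 against 1.86 and 0.936. Of S-phase genes, Tyms, which makes thymidylate, stood at 48.2 and 85.1 against 10.8 and 2.34, Rad51ap1 at 25.1 and 34.7 against 2.97 and 0.936, Brip1 at 12.8 and 18.9 against 0.742 and 0, and Cenpu at 13.5 and 31.5 against 1.11 and 0.

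The promoters of the genes called higher were searched for short motifs. RefSeq windows on GRCr8, 250 bases before to 50 after a gene's start, matched 1 entry for 94 of the 117 genes called higher. The letters TTTGAA or, on the other strand, TTCAAA, known as the CHR and common at mitotic genes, lay in 50 of the 94, or 53.2%, against 18.3% of all 33469 windows. The letters CCAAT or ATTGG lay in 64, or 68.1%, against 37.5%, and both motifs in 40, or 42.6%, against 7.41%. Among the 87 matched genes called higher against other cycling cells, described below, 6.90% held the CHR letters and 36.8% the CCAAT letters. A match is a description of the letters and not of a bound site. The genes called higher come from a split on Mki67 and Top2a and include 34 of the 46 mitosis genes tested. Their share of CHR letters thus accompanies the selection, and nothing is read from it. All windows also include those of genes not tested and of symbols with more than 1 window. Windows of Cdc20 and Plk1 are shown because both genes were called and hold both motifs, in capitals. Cdc20, which activates the complex that ends mitosis, stood at 105 and 154 CPM against 7.05 and 2.81 (chr5:137255750-137256049, minus strand), and Plk1, a mitotic kinase, at 70.5 and 126 against 2.60 and 1.40 (chr1:186147408-186147707, plus strand).
Cdc20: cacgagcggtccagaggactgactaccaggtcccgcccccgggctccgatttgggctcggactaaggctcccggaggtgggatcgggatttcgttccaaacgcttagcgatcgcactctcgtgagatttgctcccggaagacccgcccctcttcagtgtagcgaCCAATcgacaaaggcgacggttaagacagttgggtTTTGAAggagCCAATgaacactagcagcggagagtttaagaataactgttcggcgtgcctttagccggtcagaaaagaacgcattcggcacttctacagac
Plk1: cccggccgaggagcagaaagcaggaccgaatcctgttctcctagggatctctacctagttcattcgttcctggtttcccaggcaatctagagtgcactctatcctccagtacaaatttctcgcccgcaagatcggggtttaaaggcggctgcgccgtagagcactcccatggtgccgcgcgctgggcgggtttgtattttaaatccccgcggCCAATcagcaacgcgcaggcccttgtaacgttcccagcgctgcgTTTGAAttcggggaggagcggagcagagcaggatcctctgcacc

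The 12 genes named as the largest called falls were Reg1a, Adm, R3hdml, Cck, Areg, Nts, Resp18, Cpe, Chga, Dhrs9, Rsad2 and AABR07044441.1. Of these, Cck, Nts, Cpe and Chga are enteroendocrine genes, as is Resp18, a protein of hormone granules. The 20 enteroendocrine genes of the list summed to 64.5 and 59.9 CPM in members, with Sct the most abundant and 9 and 14 of the 20 at 0, against 2199 and 4827 in the non-cycling class, led by Nts in rat 1 and Cck in rat 2. A few cells carried that sum. Of the 7868 Cck UMIs in non-cycling cells of rat 2, 99.8% came from 3 cells, and of the 3789 Nts UMIs in rat 1, 96.9% came from 3 cells. Only 3 and 2 non-cycling cells had 1% or more of their UMIs in the list, and 0 members did. Cpe, a peptidase that trims hormones, was less concentrated, with a UMI in 72 non-cycling cells of rat 2 and 62.6% of its UMIs in 3 of them. The non-cycling class thus holds a few cells with hormone transcripts, and their part in these 5 calls was not tested.

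Areg, a growth factor of the EGF family, had 1 and 1 UMI in members against 144 and 1353, or 0.313 and 3.15 CPM against 53.4 and 633, with a UMI in 18 of the 257 non-cycling cells of rat 1, where 3 cells held 61.1% of its UMIs, and in 104 of the 168 of rat 2. Of those UMIs, 122 of 144 and 1146 of 1353 lay in cells above 16% goblet signal, a range with 2 and 1 members. Dhrs9, a dehydrogenase of retinoids and steroids, had 3 and 0 UMIs against 77 and 1154, and Rsad2, an interferon-induced antiviral enzyme, 0 and 1 against 49 and 192. The gene model AABR07044441.1 stood at 1.88 and 3.15 CPM against 57.1 and 500 (adjusted p = 0.0182, unblocked adjusted p = 0.135). Adm, the peptide adrenomedullin, R3hdml and Reg1a, a secreted lectin that 3 cells of the non-cycling class supplied to 79.3% in rat 1 and 80.2% in rat 2, had 0 UMIs in members of both rats. Against a floor of 3 counts per sum, Adm was at least 10.3-fold lower in rat 1 and 3.51-fold in rat 2, R3hdml 7.11-fold and 4.46-fold, and Reg1a 11.5-fold and 4.50-fold. The member sum of rat 2 was small, 317235 UMIs against 2136118, which limits what a count of 0 there can show.

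Enterocyte genes were lower in members of both rats for 30 of 30 tested, with 2 called and a median of -2.59. Their summed level was 10105 and 1690 CPM in members against 34901 and 33865, with Fabp1, a fatty acid carrier, the most abundant of the list in rat 1 and Krt20, a keratin of surface cells, in rat 2, and 0 and 5 of 30 at 0. Apoa4, an apolipoprotein of absorptive cells, stood at 372 and 158 against 3582 and 5148 and fell by 4.22 (adjusted p = 0.0372, unblocked adjusted p = 0.0941). Cyp3a9, a cytochrome, stood at 5.01 and 3.15 against 53.4 and 319 and fell by 4.50 (adjusted p = 0.0267, unblocked adjusted p = 0.131). Per cell, the list held a median 0.270% and 0.154% of UMIs in members against 0.595% and 1.12% in the non-cycling class, smaller gaps than in the sums, so cells rich in these genes weigh on the sums. Haemoglobin genes, which epithelium does not make, moved alike. Over the 5 erythroid genes in the files the level was 46.0 and 47.3 in members against 751 and 1102, led by Hba-a1, and 3 of 4 tested were called lower (Hbb, Hba-a1 and Hba-a2). Transcripts taken up from outside the cell would reach every class, and their part in the lower levels of enterocyte genes was not tested.

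Paneth genes gave 0 calls among 14 tested (5 at an unadjusted p under 0.05 in edgeR without block, 1 by DESeq2). The list summed to 5878 and 7184 CPM in members against 5588 and 5084, but Itln1, a lectin that goblet cells also make, supplied 5044 and 6257 of it, and 8 and 16 of the 25 genes were at 0. Gene by gene the list leaned the other way, with a median log2 fold change of -1.60, 8 genes lower in members of both rats and 1 higher in both. Tuft genes, 14 in the files, summed to 12.5 and 78.8 against 15.96 and 99.7, and leukocyte genes, 19, to 391 and 126 against 407 and 422, with 0 calls in either list (edgeR with block; 0 and 1 at an unadjusted p under 0.05 without it, 0 and 1 by DESeq2).

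**Figure D3:**
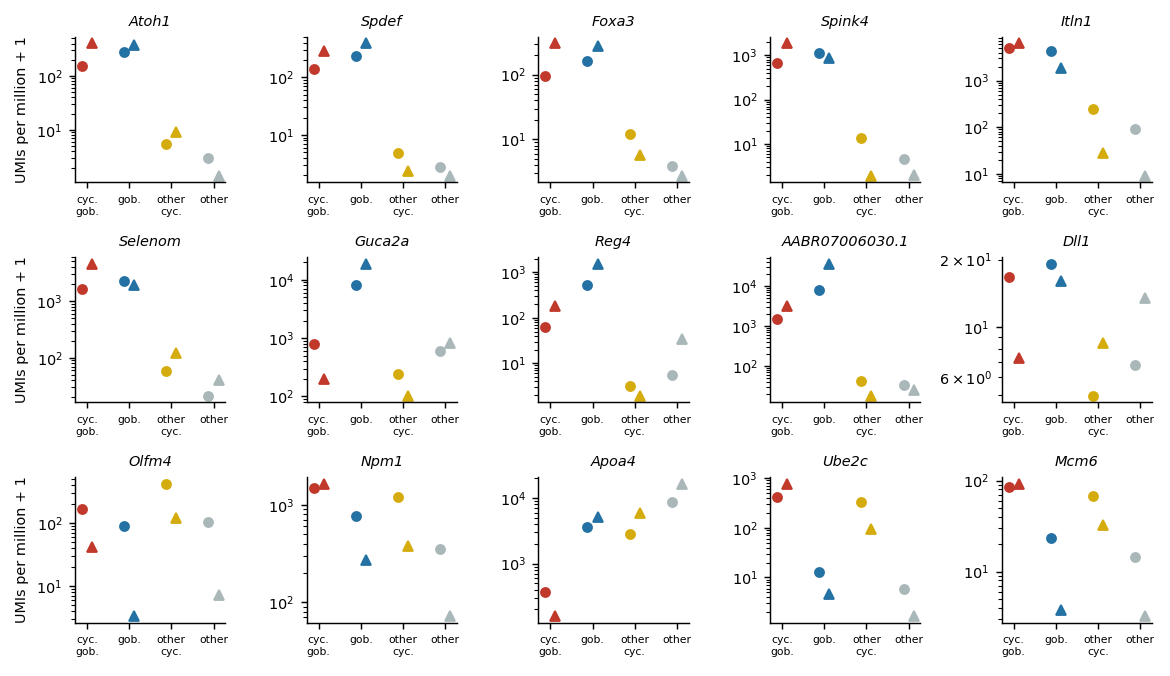
Levels of named genes in CPM in the 4 classes, circles for rat 1 and triangles for rat 2. From the left in each panel: cycling goblet-lineage, non-cycling goblet-lineage, other cycling and remaining epithelial cells.

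Because members had a weaker goblet signal than the non-cycling class, both were also set side by side within ranges of that signal, as levels with no test. In rat 1, among cells with 4% to under 8% of UMIs in the goblet genes (56 members, 55 non-cycling cells), Guca2a stood at 703 against 2150 CPM, AABR07006030.1 at 1587 against 3045, and the enterocyte list at 4059 against 31226. In the same range Atoh1 stood at 194 against 179, Spdef at 158 against 174, Spink4, a protease inhibitor of goblet granules, at 915 against 678, Itln1 at 5970 against 3780 and the secretory-route list at 17005 against 16375. In this range of rat 1 the lineage factors and the secretory-route list were thus close between the classes, whereas Guca2a and the enterocyte list were lower in members. Reg4 did not follow Guca2a there, at 90.0 against 73.1. From 2% to under 4% Guca2a stood at 465 against 1793 in rat 1, and above 16%, where rat 1 had 2 members, it was not lower in them, at 29253 against 26951. Above 16% in rat 2, with 1 member, Guca2a stood at 1989 against 32134. From 8% to under 16% (26 and 84 cells) the values were 1436 against 5592 for Guca2a, 311 against 326 for Atoh1, 45.7 against 393 for Reg4, 10549 against 7991 for Itln1 and 10701 against 40088 for the enterocyte list. In rat 2, with 9 members and 16 non-cycling cells from 4% to under 8%, they were 68.6 against 4286 for Guca2a, 398 against 127 for Atoh1, 316 against 132 for Spdef, 27527 against 12618 for the secretory-route list, 151 against 262 for Reg4, 6349 against 1354 for Itln1 and 1706 against 57153 for the enterocyte list. The closeness of the lineage factors and the secretory route in rat 1 was thus not seen in rat 2, where both were higher in members. Those 16 non-cycling cells included the hormone-rich ones, with the enteroendocrine list at 27576 CPM against 59.5 in members, and their part in this was not tested. In rat 1 the enteroendocrine list was also higher in non-cycling cells. It stood at 47.2 in members against 7234 from 2% to under 4%, and at 71.5 against 1864 from 4% to under 8%. Its part in the values of rat 1 was not tested. Ribosome biogenesis was higher in members at 4% to under 8% and 8% to under 16% in rat 1, at 4256 against 2589 and 3070 against 1917, and at 4% to under 8% in rat 2, at 4963 against 1197, but not above 16% in rat 1, at 1207 against 1323 with 2 members.

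Against the other cycling epithelial cells, several goblet genes were called higher in members. Some enterocyte, tuft and erythroid genes were called lower, while the cell-cycle lists gave no call. The lower calls depended on the limits. With at least 4 UMIs of Mki67 and Top2a the blocked fit called 94 genes higher and 1 lower. On thinned cells it called 103 and 18, and with no epithelial condition 68 and 25. In edgeR without the block, 0 of 9196 genes passed (1138 at an unadjusted p under 0.05, lowest adjusted p 0.0516). With the rat as block 226 passed, 2.46% of those tested, 136 higher (1.48%) and 90 lower (0.979%), and DESeq2 without the block called 513, which included 205 of the 226. Those 513 were 177 higher and 336 lower, so which direction held more calls depended on the fit. The blocked count was 607 without the members of rat 1, 139 without those of rat 2, 748 and 752 without the non-cycling class of rats 1 and 2, and 934 and 385 without the other cycling class. Over the 50 named genes called in this comparison the unblocked adjusted p ran from 0.0516 to 0.474, and 41 of the 50 passed in DESeq2. Since the classes were split on 5 goblet genes, other goblet genes accompany the selection, and their rise is given as a description of what the lineage carries while it divides.

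Secretory factors were called higher for 5 of 18 tested and lower for 0. Atoh1 stood at 153 and 400 CPM in members against 4.41 and 7.96, a log2 rise of 5.07 (adjusted p = 0.00890, unblocked adjusted p = 0.0516). Spdef stood at 138 and 287 against 3.85 and 1.41, and rose by 5.63 (adjusted p = 0.00961, unblocked adjusted p = 0.0516). Foxa3, a forkhead factor of the goblet lineage, stood at 94.3 and 303 against 11.3 and 4.68, and rose by 3.92 (adjusted p = 0.0270, unblocked adjusted p = 0.0686). Gfi1, a repressor that keeps goblet and Paneth cells from the enteroendocrine fate, had 21 and 4 UMIs against 2 and 3 in a far larger class, and rose by 4.49 (adjusted p = 0.0471, unblocked adjusted p = 0.223). The other 13 factors tested were not called, and the list median was 0.37, or 0.48 with the gene at 0 UMIs in a class at its bound. Foxa3 had a UMI in 164 of the 1207 other cycling cells of rat 1 against 121 of the 145 members.

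Genes of the secreted mucus list, not all of them secreted, were called higher for 18 of 32 tested and lower for 1. In both rats 25 were higher, and the median was 3.72, against 0.00 over all genes. Spink4 stood at 657 and 1847 against 12.5 and 0.937 and rose by 7.18, the largest called rise by the naming rule (adjusted p = 0.0203, unblocked adjusted p = 0.0599). Rep15, a partner of the vesicle protein Rab15, stood at 125 and 82.0 against 2.67 and 0, Lrrc26, a subunit of potassium channels in secretory epithelium, at 58.6 and 88.3 against 1.41 and 0, and Slc12a8, a transporter of the cation-chloride family, at 101 and 328 against 2.95 and 0. AABR07006030.1 stood at 1514 and 3168 against 40.7 and 16.9 and rose by 5.76 (adjusted p = 0.0270, unblocked adjusted p = 0.0755). Clca4, called lower, stood at 55.8 and 28.4 against 372 and 728 and fell by 3.93 (adjusted p = 0.0262, unblocked adjusted p = 0.0599), so that it was lower in members than in either class they were set against.

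The other genes named as the largest called rises were Mcemp1, Id4, Bace2, Klk1b3, Pla2g10, Ffar2, Trim46 and Tac4. Id4, an inhibitor of helix-loop-helix factors such as Atoh1, stood at 206 and 782 against 5.86 and 0 (log2 fold change 6.51, adjusted p = 0.0295, unblocked adjusted p = 0.0724). Klk1b3, a kallikrein protease, stood at 133 and 489 against 3.14 and 0.468, and Pla2g10, a secreted phospholipase, at 122 and 132 against 1.92 and 0.468. Bace2, a membrane protease, stood at 37.9 and 101 against 0.516 and 0, and Mcemp1 at 17.5 and 53.6 against 0.234 and 0. Trim46 had 53 and 14 UMIs against 2 and 3. Ffar2, a receptor for short-chain fatty acids, had 17 and 8 UMIs against 2 and 0, and Tac4, a tachykinin peptide, had 20 and 10 against 3 and 0. In all 8 genes each member sum lay above both sums of the other class.

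**Figure D4:**
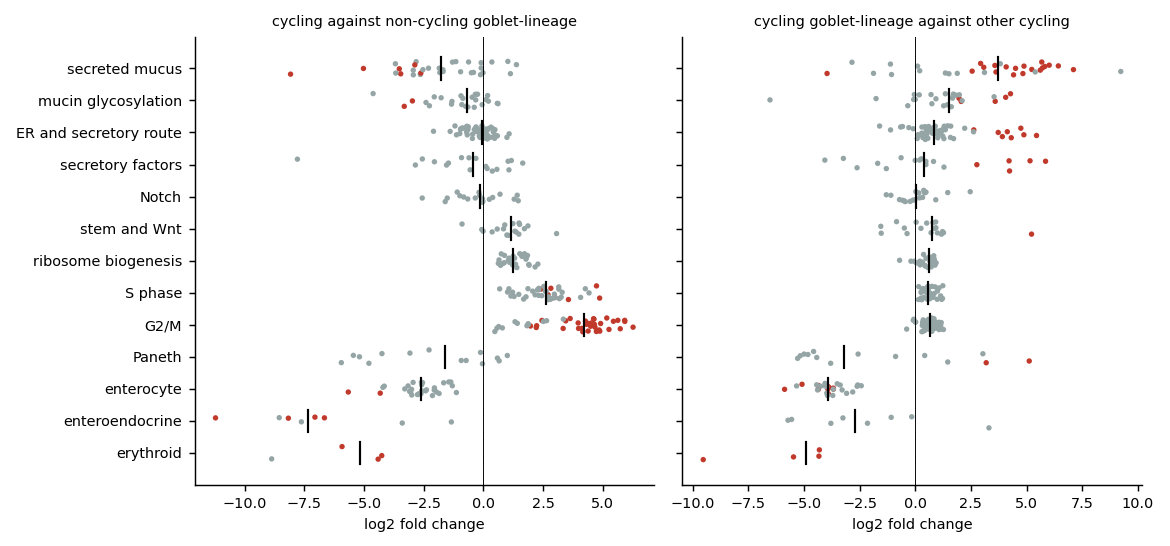
Log2 fold changes of the tested genes of each list in both comparisons, from the fit without the block. Red genes were called with the rat as block, black bars are list medians, and lists close to the selecting genes follow from the selection.

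Of 26 mucin glycosylation genes 5 were called higher and 0 lower, with a median of 1.53. Galnt5, which adds the first sugar to mucin chains, stood at 149 and 218 against 8.30 and 6.56 and rose by 4.24 (adjusted p = 0.00890, unblocked adjusted p = 0.0516), and St3gal1, a sialic acid transferase, stood at 66.1 and 236 against 6.61 and 12.6 and rose by 3.48 (adjusted p = 0.0157, unblocked adjusted p = 0.0833). St6gal1, also called, had 61 and 0 UMIs against 12 and 2, so rat 2 does not bear its call out. Of 59 genes of the endoplasmic reticulum and secretory route 8 were called higher and 0 lower, 51 were higher in both rats, and the median was 0.83. Selenom, a selenoprotein of the endoplasmic reticulum, stood at 1667 and 4593 against 58.4 and 119 and rose by 4.74 (adjusted p = 0.0116, unblocked adjusted p = 0.0599). Ern2, the stress sensor of mucin-secreting cells, stood at 17.9 and 56.7 against 0.797 and 0, Creb3l1, a factor of the secretory route, at 101 and 492 against 8.21 and 7.03, and Txndc5, a disulfide isomerase, at 444 and 1097 against 39.4 and 21.5.

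The window of Galnt5 (chr3:62982215-62982514 on GRCr8, plus strand, RefSeq) is shown because the gene adds the first mucin sugar and holds the letters CAGCTG, in capitals, which read the same on both strands and are a form of the E-box that factors such as Atoh1 recognise. These letters lay in 20 of the 87 matched windows of genes called higher here, or 23.0%, against 15.1% of all windows, and in 24.6% of those called lower. The share was thus no higher among the genes called higher than among those called lower, and nothing is read from it about a factor.
Galnt5: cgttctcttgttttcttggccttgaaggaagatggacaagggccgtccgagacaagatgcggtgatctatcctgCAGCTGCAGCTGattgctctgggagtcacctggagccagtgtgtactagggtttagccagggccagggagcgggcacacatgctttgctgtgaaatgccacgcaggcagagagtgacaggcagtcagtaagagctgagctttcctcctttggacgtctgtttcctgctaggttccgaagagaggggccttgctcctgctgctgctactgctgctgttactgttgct

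Of 46 mitosis genes, 41 S-phase genes and 29 ribosome biogenesis genes, 0 were called (edgeR with block; 0, 0 and 0 at an unadjusted p under 0.05 without it, and 0, 0 and 0 by DESeq2), with medians of 0.65, 0.57 and 0.60. A count of 0 in a fit of 2 rats does not show that the classes were alike. Most of the lean came from rat 2. There the mitosis list summed to 10680 CPM in members against 3171, while in rat 1 it was 6398 against 5898, and the S-phase list stood at 2556 against 677 in rat 2 and at 1660 against 1498 in rat 1, and ribosome biogenesis at 5119 against 1417 and at 4105 against 3428. The difference in rat 2 goes with the other cycling cells near the limit described above, and their part in it was not tested.

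Notch genes gave 0 calls among 19 tested (1 at an unadjusted p under 0.05 in edgeR without block, 0 by DESeq2). Dll1 stood at 15.7 and 6.30 CPM in members against 3.94 and 7.49, higher in rat 1 and lower in rat 2 (log2 fold change 1.15, adjusted p = 0.426, unblocked adjusted p = 0.664). Dll4 stood at 7.20 and 15.8 against 3.38 and 2.34 (log2 fold change 1.33, adjusted p = 0.294, unblocked adjusted p = 0.396), and Hes1 at 73.3 and 12.6 against 66.8 and 42.6 (adjusted p = 0.587, unblocked adjusted p = 0.860). Among 18 stem and Wnt genes 1 was called, Clca2, at 68.9 and 37.8 against 1.74 and 0, a log2 rise of 5.39 (adjusted p = 0.00890, unblocked adjusted p = 0.0599). Olfm4 stood at 163 and 41.0 against 420 and 118, a log2 fold change of -1.90 (adjusted p = 0.242, unblocked adjusted p = 0.719). A UMI of Lgr5 was found in 2.07% and 0% of members and in 0% of thinned ones in both rats, a limit of detection at 5000 UMIs and not of expression, against 1.24% and 2.30% of thinned other cycling cells.

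Enterocyte genes were called lower for 10 of 29 tested and were lower in members of both rats for all 29, with a median of -3.93. With at least 4 UMIs of Mki67 and Top2a the blocked fit called 1 gene lower in all. At most 1 of these 10 calls thus passed there. The whole list summed to 10105 and 1690 CPM in members against 50031 and 80198 in the other cycling cells, with Fabp1 the most abundant there. Apoa4 stood at 372 and 158 against 2801 and 5941 and fell by 4.23 (adjusted p = 0.0385, unblocked adjusted p = 0.0803). Slc2a5, the fructose carrier, stood at 4.39 and 0 against 37.1 and 82.4, and Treh, which splits trehalose, at 4.07 and 0 against 34.5 and 274. Per cell, the list held a median 0.270% and 0.154% of the members' UMIs, against 0.537% and 5.68% of those of the other cycling cells, whose quartiles reached from 0.286% to 8.08% and from 1.21% to 11.2%. The other cycling class thus mixes crypt-like cells with cells rich in absorptive genes, more so in rat 2, and their part in the lower enterocyte values of the members was not tested.

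The 12 genes named as the largest called falls were Reg1a, Rprml, Ptgs1, Hba-a3, Wfdc21, Pik3r5, Aqp8, Slc16a3, Aldh3b1, Pfkfb3, Stfa3 and Slc37a2. The first 6 had 0 UMIs in members of both rats. Against a floor of 3 counts per sum, Reg1a was at least 13.6-fold lower in rat 1 and 15.2-fold in rat 2, Rprml 2.05-fold and 6.84-fold, and Hba-a3 4.49-fold and 2.97-fold, and in rat 2 Ptgs1 was at least 7.48-fold, Wfdc21 5.70-fold and Pik3r5 5.45-fold lower. Ptgs1 and Pik3r5 lay under the floor in rat 1, and Wfdc21 was at least 1.35-fold lower there. In the other cycling class 1 cell held 83.2% of the Reg1a UMIs of rat 1 and 54.1% of those of rat 2, so its bounds rest on few cells. Aqp8, a water channel, had 0 and 1 UMI against 6 and 258 and had a log2 fold change of 0.12, the other direction, without the other cycling cells of rat 2, Slc16a3, a lactate carrier, 1 and 0 against 120 and 179, Aldh3b1, an aldehyde dehydrogenase, 1 and 0 against 180 and 34, Pfkfb3, a switch of glycolysis, 1 and 0 against 100 and 89, and Slc37a2, a sugar-phosphate carrier, 1 and 0 against 97 and 59. Stfa3, a stefin, had 0 and 7 against 144 and 843, but 94.4% and 97.6% of its UMIs in the other cycling class came from 1 cell in each rat. Only 6 of these 12 passed in DESeq2. Several are genes of rat 2 in the main, with CPM from 15.9 to 395 there and from 0.281 to 12.8 in rat 1.

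Tuft genes were called lower for 2 of 9 tested, Ptgs1 and Dclk1, and were lower in members of both rats for all 9, though Ptgs1 lay under the floor in rat 1. With at least 4 UMIs of Mki67 and Top2a, where 1 gene in all was called lower, at most 1 of these 2 calls passed. The 14 in the files summed to 12.5 and 78.8 CPM in members, with 5 and 11 of the 14 at 0, against 36.6 and 1238 in other cycling cells. Dclk1, a kinase that marks tuft cells, had 3 and 1 UMIs against 74 and 215 (adjusted p = 0.0493, unblocked adjusted p = 0.324). Erythroid genes were called lower for 4 of 4 tested, at a summed 46.0 and 47.3 against 440 and 1233, and of 16 leukocyte genes tested 1 was called lower, Cd74, at 63.3 and 18.9 against 387 and 346. Their part in the other differences was not tested. Paneth genes were called higher for 2 of 14, Itln1 and Wnt3. Itln1 stood at 5044 and 6257 against 246 and 27.2 and rose by 5.68 (adjusted p = 0.0236, unblocked adjusted p = 0.0995), and Wnt3, a Wnt ligand of the crypt base, at 9.08 and 78.8 against 1.36 and 6.09. The list was mixed, with a median of -3.19, 7 of the 14 genes lower in members of both rats and 4 higher in both. Defa24, a defensin, had 0 UMIs in members of rat 2. Lyz2, a lysozyme of the list, had a UMI in 41.4% and 23.1% of thinned members, against 3.40% and 2.30% of thinned other cycling cells.

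**Figure D5:**
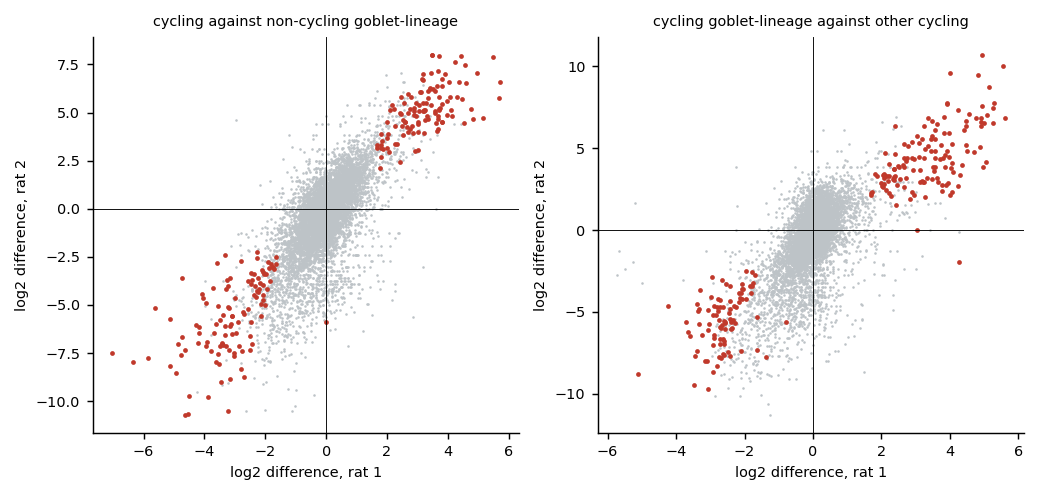
Difference between members and each compared class in rat 1 against the same difference in rat 2, for every gene tested. Red genes were called with the rat as block.

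The members had the lineage factors and the secretory route of goblet cells, at levels where no difference from non-cycling cells was called. Their summed levels of Guca2a, Reg4 and Clca4 were lower. Within ranges of goblet signal neither Guca2a nor Reg4 was lower in each, and Clca4 was not examined by range. The exception for Guca2a was the range above 16% in rat 1, with 2 members. For Reg4 it was that from 4% to under 8% in rat 1. Members had cell-cycle transcripts in which no difference from other dividing cells was called, which 2 rats do not make a test of likeness. Their summed levels of enterocyte genes were lower than those of either compared class. Against other cycling cells, at most 1 of the 10 enterocyte calls passed with at least 4 UMIs of Mki67 and Top2a. The same limits hold throughout. The member sum of rat 2 rests on 13 cells, and every call comes from the fit with the rat as block, since the fit without it called 0 genes in both comparisons.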

How the data were processed

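Jejunal epithelium of 2 rats was profiled as 1 droplet library per rat. The deposited values are raw UMI counts per gene and barcode, which the authors made on rn6 (per the file headers, Cell Ranger 3.1.0 wrote the library of rat 1, version 5.0.1 that of rat 2), with 32883 features, of which 4255 share a symbol with another and were kept apart by identifier. The cell filters, classes and limits are given in the report, and the members and gene lists were chosen with earlier results of these data known. Barcodes under the goblet limit with 10 or fewer UMIs of the 5 epithelial genes, 33 in rat 1 and 573 in rat 2, belonged to no class. UMIs were summed per rat and class over 3 classes without the 7 genes of the rule, and fitted over the 6 sums with edgeR 4.0.16 (TMM, quasi-likelihood, R 4.3.3), with DESeq2 1.42.0 as another tool and with the rat as block. P values were two-sided and adjusted by the method of Benjamini and Hochberg over all genes tested. As a check of pairing, the per-gene differences between the rats correlated across genes, which are not independent replicates, at 0.157 between both goblet-lineage classes, 0.0352 between members and other cycling cells and 0.617 between the non-cycling goblet-lineage and other cycling cells. The fits were tested on simulated data.

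The named genes were, per comparison and direction, the 12 with the largest log2 fold change among those past an adjusted p of 0.05, changed the same way in both rats and with at least 5 UMIs in the higher class of each rat, up to 4 called genes per list and direction, and preset lineage genes. As the fit without the block called 0, the rule was applied to the blocked fit, a choice made after the values were seen. Other genes were named after their values were seen. A gene at 0 UMIs in a class was given a bound per rat against a floor of 3 counts in the sum. Cells were thinned to 5000 UMIs where shares or per-cell sums were compared. Doublets were called with Scrublet in scanpy 1.11.5, per library (Python 3.11.15, numpy 2.4.6, scipy 1.17.1, pandas 2.3.3). Figures were drawn with matplotlib 3.10.9. Promoter windows came from RefSeq on GRCr8, while the counts were made on rn6. Genes were joined by symbol, and called genes whose symbol had more than 1 window were left out.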

Additional observations from a re-analysis of the deposited data

Results flagged for a closer look

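Barcodes outside the cell filters also carried both sets of markers. In rat 1, 23 barcodes met the goblet and the cycling limits but not the filters, 17 of them with 5800 or more genes and 6 with 5000 or fewer UMIs. In rat 2 there were 2, both with 5000 or fewer UMIs and 1 of them with over 40% of UMIs in mitochondrial symbols. They were noticed because they lie in data that the comparisons leave out. The 23 had a median of 44706 UMIs and 5998 genes, and whether the 17 are single cells was not tested.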

How the results depend on the processing

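Counts of genes called depended on the processing, and the cause was not tested. Without the block, 0 genes were called between members and non-cycling goblet-lineage cells, against 229 with the rat as block, 646 by DESeq2, 1094 with no filter on low counts, 36 with goblet genes at 4% or more, 81 with at least 4 UMIs of Mki67 and Top2a, 63 with at most 20% mitochondrial UMIs 43 with non-cycling cells at 0 UMIs and 18 with no epithelial condition on the other cycling class. Leaving out 1 sum at a time, which assumes that a lone sum varies like the other classes, gave 0 to 428. Against other cycling cells the 0 became 226, 513 and 826 in the first 3 of these settings, 72 with library size alone, 243 at 4% or more 8 with at most 20% mitochondrial UMIs and 26 with non-cycling cells at 0 UMIs, and 0 to 470 on leaving out 1 sum. The alternatives to the blocked fit were chosen after seeing the data. Its 229 became 0 without the block, 829 by DESeq2, 1481 with no filter, 352 with library size alone, 416 with the genes of the rule kept, 815 at 4% or more, 710 with at least 4 UMIs, 499 on thinned cells, 497 with no upper limit on genes, 773 with at most 20% mitochondrial UMIs, 459 with non-cycling cells at 0 UMIs, 140 with no epithelial condition, and 123 to 1280 on leaving out 1 sum. Its 226 became 0 without the block, 593 by DESeq2, 1022 with no filter, 343 with the genes of the rule kept, 766 at 4% or more, 95 with at least 4 UMIs, 121 on thinned cells, 360 with no upper limit, 93 with no epithelial condition, and 139 to 934 on leaving out 1 sum. Members of rat 1 numbered 106 with at least 4 UMIs, 93 on thinned cells and 84 at 4% or more, with cycling shares of 29.2%, 23.1% and 27.3%, and rat 2 had 6 members and 3.31% on thinned cells. The 29.2% is a share of these 106 and the 257 non-cycling cells. It leaves out the goblet-lineage cells of rat 1 with 2 and 3 UMIs, 27 and 12, which were then in neither class. Of 2175 values of 104 named results, set against the fit without the block, in which 0 genes passed (edgeR; 1662 and 1138 at an unadjusted p under 0.05, and 646 and 513 called by DESeq2), 1499 kept their direction and, where tested, again did not pass, 584 passed, 70 moved, and 22 of 7 results reversed in sign. Log2 fold changes that reversed, with the range over the leave-outs of 1 sum last, were these. Against non-cycling cells, Hes1 had 0.0106 with no filter, 0.21 with library size alone, 0.0413 at 4% or more, 0.15 with non-cycling cells at 0 UMIs and 0.36 in rat 1 alone (-2.20 to 0.65). Dll4 had 0.00507 with no filter, 0.26 with library size alone, 0.16 with at least 4 UMIs, 0.92 on thinned cells and 0.38 in rat 2 alone (-0.41 to 0.42), and Olfm4 reversed on the leave-outs (-0.62 to 5.16). Against other cycling cells, Hes1 had 0.0180 in rat 1 alone (-2.53 to 0.32), Dll1 -0.73 in rat 2 alone (-0.22 to 1.51), St6gal1 -1.95 in rat 2 alone (-4.95 to 4.76), and Aqp8 reversed on the leave-outs (-11.69 to 0.12).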
